A study of Arabidopsis thaliana with 12 samples.

Results

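The interaction of LBD16 activation and cycloheximide (CHX) was measured gene by gene as a difference of differences. The change with dexamethasone (DEX) between roots without CHX was subtracted from the change with DEX between roots given CHX. All 12 of the 12 arrays entered, 3 for each of the 4 treatments, and 16550 genes were tested, those to which the array annotation gave at least 1 row of their own among 38408 rows. Values are on the log2 scale, so an interaction of 0 means that DEX changed a transcript by the same fold with and without CHX. An interaction of 1 means that the ratio of DEX to no DEX was 2 times as large under CHX, and a negative value that it was smaller.

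All roots came from 5-day-old Arabidopsis thaliana seedlings of 1 line, in which LBD16 was fused to the glucocorticoid receptor (GR) and expressed from the 35S promoter of cauliflower mosaic virus, a promoter active in most plant cells. Every array, the mock arrays included, therefore carried the fusion, and also the arf7-2 and arf19-5 mutations. Whole roots were collected after 4 hours with mock solution (0.1% DMSO), 2 µM DEX, 10 µM CHX or DEX and CHX together. The labels describe the 3 arrays of a treatment as independent sets of RNA and do not say how many plants each held. The effect of either chemical on roots that lack the fusion was not measured, so a response of the root to DEX itself and a response to the fusion cannot be told apart.

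ARF7 and ARF19 are auxin response factors that switch on LBD16 when lateral roots are initiated, and LBD16 is a transcription factor that acts below them. A GR fusion is held in the cytoplasm until a steroid such as DEX binds it, after which it can enter the nucleus. CHX stops ribosomes from making protein. Transcripts that respond to DEX in its presence can be read as not needing newly made protein, and for that reason the chemicals are often combined. CHX by itself is also known to raise many short-lived transcripts, so DEX may start from another level in its presence.

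LBD16 was read at an even level in every array. Its DEX arrays read 9.38, 9.30 and 9.29 and its DEX+CHX arrays 9.58, 9.44 and 9.52, beside group means of 9.49 ± 0.06 (SD, n = 3) under mock conditions and 9.60 ± 0.08 with CHX. Its interaction was 0.08 (95% interval -0.19 to 0.34, limma adjusted p = 1). The probes may read both the fusion and the native gene, and a transcript level does not show where the protein was.

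Arrays of the same treatment correlated at 0.992 to 0.994 over the genes tested, arrays that differed in DEX alone at 0.989 to 0.994, and arrays that differed in CHX at 0.873 to 0.885. CHX thus moved the arrays far more than DEX did. CHX alone was called for 9088 genes (54.9%), 4002 higher and 5086 lower, at an adjusted p below 0.05 over all genes. Those directions depend on how arrays are scaled. The median change with CHX was -0.08 in the deposited values, 0.37 after each array was centred on all rows, -0.19 after centring on the tested genes and -0.14 after quantile normalization. The share of CHX calls that were higher was 44.0%, 75.4%, 36.3% and 38.2% in the same order. A shift common to all CHX arrays falls out of the interaction, whose median was -0.03 in the deposited values and between -0.02 and 0.00 after the other scalings.

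DEX changed a small set of transcripts by a different amount when CHX was present. The interaction was called for 21 of 16550 genes (0.127%). In 7 genes (0.0423%) it was positive, with a median of 2.34, and in 14 genes (0.0846%) it was negative, with a median of -1.89. After centring on all rows the split was 11 positive and 13 negative. All 21 genes encode proteins. The 14 negative genes all rose with DEX alone, where 252 of all genes (1.52%) were called and 184 (1.11%) were higher, and 3 of them also rose with DEX under CHX, where 98 genes (0.592%) were called and 91 (0.55%) were higher. The 7 positive genes showed the other arrangement in most cases, since 6 rose with DEX under CHX and 1 rose with DEX alone. The interaction is built from the same arrays as the DEX effects, so these counts describe the called genes and are not a second line of evidence.

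**Figure D1:**
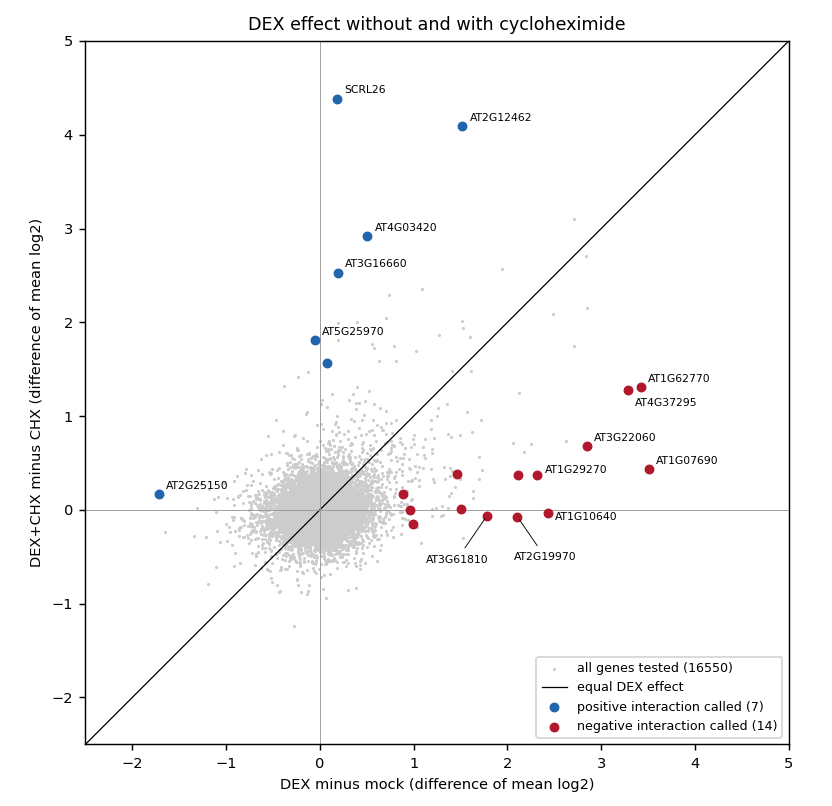
Change with DEX without CHX (horizontal axis) against change with DEX under CHX (vertical axis), each a difference of mean log2 values over 3 arrays per treatment, for the 16550 genes tested. The line marks an equal DEX effect. The 7 genes with a positive interaction lie above it and the 14 with a negative interaction lie below it, most of those near 0 on the vertical axis.

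The comparison has less precision than either DEX effect. The median standard error of the interaction was 0.20, against 0.14 for a single DEX effect, because it combines 4 group means. The interaction reached an absolute size of 1 in 112 genes, of which 93 were not called, and the smallest one called was 0.72. Genes without a call therefore include many whose interaction could not be resolved with 3 arrays per treatment.

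SCRL26 had the largest interaction of the genes tested. It encodes a small secreted cysteine-rich peptide of the SCR-like family, named for its likeness to the pollen protein of crucifer self-incompatibility. Its mock arrays read 4.29, 4.57 and 4.80, its DEX arrays 4.76, 4.47 and 4.96, its CHX arrays 5.07, 5.57 and 6.21 and its DEX+CHX arrays 10.07, 10.17 and 9.77. The DEX and mock arrays overlapped, while all arrays with both chemicals stood far above every other array. The change with DEX was 0.18 ± 0.25 (SE) without CHX and 4.39 ± 0.25 with it, which gave an interaction of 4.21 (95% interval 3.43 to 4.99, adjusted p = 0.000403). CHX alone raised SCRL26 2.09-fold (adjusted p = 0.00314), so the level with both lay well beyond the level that either chemical gave by itself. Its call was lost without replicate 2 of every treatment (3.96, adjusted p = 0.128).

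AT3G16660, AT5G25970 and AT4G33170 followed the same outline at lower levels. The reference names these genes by locus alone, as it does most of the genes below, and no role is given for them here. AT3G16660 read 3.94, 4.05 and 3.66 on the mock arrays, 3.80, 4.15 and 4.27 on the DEX arrays, 4.29, 4.53 and 4.31 on the CHX arrays and 6.67, 7.30 and 6.74 on the arrays with both chemicals. Its arrays with both chemicals did not overlap with any others, and its change with DEX was 0.19 without and 2.53 with CHX (interaction 2.34 ± 0.26 SE, adjusted p = 0.00255). AT5G25970 had means of 2.95 ± 0.23 (SD, n = 3) on the mock arrays, 2.89 ± 0.17 on the DEX arrays, 3.01 ± 0.12 on the CHX arrays and 4.82 ± 0.23 on the DEX+CHX arrays, and its interaction was 1.87 ± 0.21 (SE, adjusted p = 0.00365). AT4G33170 stood at 5.38 ± 0.28, 5.45 ± 0.26 and 5.44 ± 0.13 in the first 3 treatments and at 7.01 ± 0.15 with both. In these last 2 genes neither chemical alone gave a called change. The mock means of AT3G16660 and AT5G25970 lay among the dimmest 30% of genes (up to 4.15), for which the deposited values state no floor.

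The AT4G33170 interaction was 1.49 ± 0.23 (SE, adjusted p = 0.0329), and its call needed most of the arrays. Its call was lost when any 1 of 10 arrays was left out, all but mock replicate 1 and DEX replicate 2, with adjusted p from 0.0113 to 0.104 over the 12 refits. AT5G25970 and AT3G16660 kept their calls with any single array left out. Both lost them without replicate 1, 2 or 3 of every treatment (adjusted p up to 0.275 for AT5G25970 and 0.128 for AT3G16660). CHX alone was called for AT3G16660 (0.49, adjusted p = 0.0366), also after centring on all rows (0.93, adjusted p = 0.000633), but not after centring on the tested genes (0.37, adjusted p = 0.0986) or quantile normalization (0.38, adjusted p = 0.103). After that centring on all rows AT5G25970 and AT4G33170 were called higher with CHX as well (0.50, adjusted p = 0.0124, and 0.51, adjusted p = 0.0195).

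AT2G12462 and AT4G03420 differed from those genes in that CHX alone lowered them and DEX raised them again in its presence. The AT2G12462 arrays read 10.60, 10.35 and 9.85 under mock conditions, 11.98, 11.74 and 11.64 with DEX, 5.34, 4.93 and 5.12 with CHX and 9.33, 8.96 and 9.39 with both. No 2 treatments overlapped, and the level with both chemicals stayed below that with mock. DEX raised it 2.87-fold without CHX (adjusted p = 0.00143) and 17.1-fold with it (adjusted p = 1.84e-06), for an interaction of 2.57 ± 0.27 (SE, adjusted p = 0.00214). The scale matters for this gene. On the antilog scale, where differences of signal and not ratios are compared, its interaction was negative, at -1724 signal units, since it gained more signal from DEX without CHX.

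The AT4G03420 arrays read 7.69, 7.32 and 7.96 under mock conditions, 8.15, 7.99 and 8.34 with DEX, 5.88, 6.24 and 6.13 with CHX and 8.85, 9.14 and 9.01 with both. The DEX arrays stood above the mock arrays, the CHX arrays below them and the arrays with both above all others. Its change with DEX was 0.51 ± 0.17 (SE, adjusted p = 0.231) without CHX and 2.92 ± 0.17 (adjusted p = 3.37e-06) with it. Its interaction was 2.41 ± 0.23 (adjusted p = 0.00107).

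The remaining positive gene, AT2G25150, an acyltransferase of the HXXXD type, owed its sign to a fall. Its mock arrays read 9.33, 9.06 and 9.70, its DEX arrays 7.20, 7.75 and 8.00, its CHX arrays 6.39, 5.88 and 6.17 and its DEX+CHX arrays 6.35, 6.31 and 6.29. The DEX arrays lay below the mock arrays, and both sets with CHX lay lower still and overlapped with each other. Its change with DEX was -1.72 ± 0.21 (SE, adjusted p = 0.00112) without CHX, where 68 of all genes (0.411%) were called lower, and its change under CHX was 0.17 (adjusted p = 1). The interaction of 1.88 ± 0.30 (SE, adjusted p = 0.0373) lost its call when any 1 of 9 arrays was left out, with adjusted p from 0.0232 to 0.106 over the 12 refits. Of those 12 refits, the call held without DEX replicate 1, mock replicate 2 or DEX replicate 3.

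**Figure D2:**
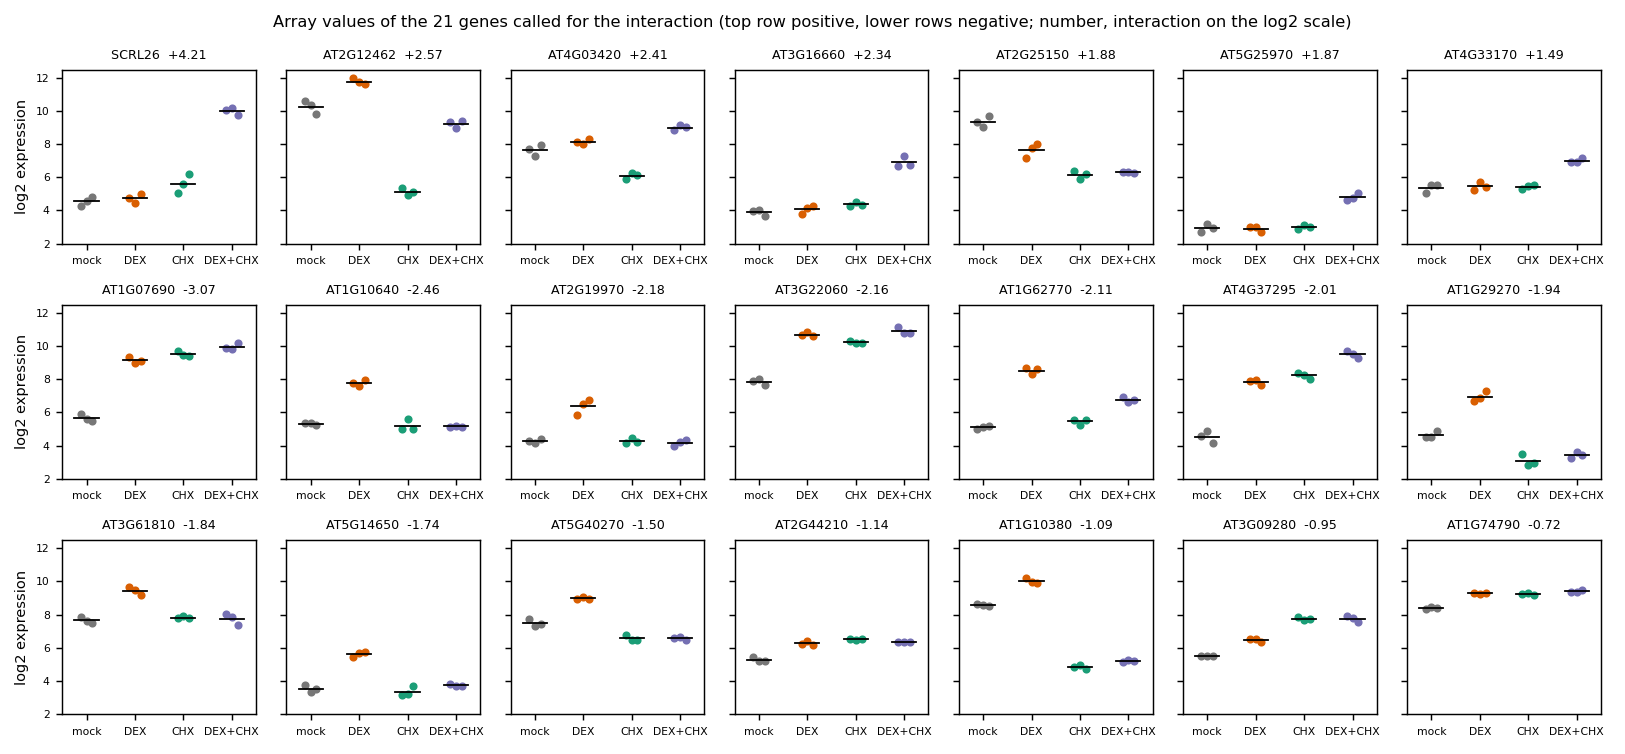
Log2 expression (vertical axis) on each of the 12 arrays for the 21 genes called, by treatment. Points are arrays in the order of replicates 1 to 3, bars are the means of 3 arrays and the number beside each name is the interaction. Among the positive genes of the top row SCRL26 stands at 10.00 with both chemicals against 4.55 to 5.62 in the other treatments, and among the negative genes AT1G07690 stands at 9.16 to 9.98 in all treatments but mock.

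The 14 genes with a negative interaction fell into several arrangements by what CHX did alone, where 24.2% of all genes were called higher and 30.7% lower. CHX raised 7 of the 14, lowered 3 and was not called for 4. These shares are given as a description, beside backgrounds that depend on the scaling as above.

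In the first arrangement CHX by itself brought a transcript near or above the level that DEX gave, and the rise with DEX was smaller under CHX (called for AT3G22060 and AT4G37295) or not called. AT1G07690 is the clearest case, with the largest negative interaction. It read 5.88, 5.58 and 5.49 under mock conditions, 9.35, 8.97 and 9.14 with DEX, 9.74, 9.50 and 9.41 with CHX and 9.90, 9.82 and 10.23 with both. All arrays with any chemical stood far above the mock arrays, and the CHX arrays stood above the DEX arrays. DEX raised it 11.4-fold without CHX (3.51 ± 0.15 SE, adjusted p = 2.45e-07), CHX raised it 14.9-fold (adjusted p = 8.83e-10), and under CHX the change with DEX was 0.43 ± 0.15 (adjusted p = 0.625). The interaction was -3.07 (95% interval -3.54 to -2.60, adjusted p = 0.000179). Of the 21 genes, AT1G07690 alone kept its call in every refit, those without 1 replicate of all treatments included.

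AT3G22060 encodes a secreted cysteine-rich protein related to receptor kinases. It read 7.89, 8.03 and 7.68 under mock conditions, 10.66, 10.85 and 10.61 with DEX, 10.35, 10.19 and 10.19 with CHX and 11.14, 10.81 and 10.83 with both. The CHX arrays lay just below the DEX arrays, and the arrays with both overlapped with the DEX arrays. Its rise with DEX was 7.17-fold without CHX and 1.60-fold with it (adjusted p = 0.0319), so it rose in both settings, by unequal amounts (interaction -2.16 ± 0.18 SE, adjusted p = 0.000403). Without replicate 3 of every treatment the interaction was -2.09 (adjusted p = 0.0992).

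AT4G37295, a gene of the PIP type of secreted peptides, also rose with DEX in both settings by unequal amounts, at a lower level. It read 4.61, 4.86 and 4.15 under mock conditions, 7.89, 7.95 and 7.64 with DEX, 8.40, 8.25 and 8.05 with CHX and 9.74, 9.52 and 9.28 with both. No 2 treatments overlapped. Unlike in AT3G22060, the CHX arrays of AT4G37295 lay above its DEX arrays, and its arrays with both stood above all others. DEX raised it 9.75-fold without CHX (adjusted p = 2.63e-06) and 2.42-fold with it (adjusted p = 0.00583), and the interaction was -2.01 ± 0.26 (SE, adjusted p = 0.0076). In this gene too the sign depends on the scale, since on the antilog scale the interaction was positive, at 230.1 signal units. The other 19 called genes had the same sign on both scales.

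AT2G44210, AT3G09280 and AT1G74790 belong here with smaller changes. AT2G44210 stood at 5.27 ± 0.12 (SD, n = 3) under mock conditions, 6.26 ± 0.12 with DEX, 6.49 ± 0.04 with CHX and 6.34 ± 0.01 with both (interaction -1.14, adjusted p = 0.00368). AT3G09280 rose 1.94-fold with DEX and 4.80-fold with CHX, and with both it stood at 7.76 ± 0.17 against 7.75 ± 0.09 with CHX (interaction -0.95, adjusted p = 0.0373). AT1G74790 stood at 8.41 ± 0.04 with mock and between 9.24 and 9.41 in the other treatments (interaction -0.72, adjusted p = 0.0373). The calls of AT3G09280 and AT1G74790 lay near the threshold and needed most of the arrays. The AT3G09280 call was lost when any 1 of 10 arrays was left out, all but DEX+CHX replicate 1 and DEX replicate 3 (adjusted p up to 0.105). That of AT1G74790 was lost with any 1 of 11, all but DEX+CHX replicate 3 (adjusted p up to 0.125).

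In the second arrangement CHX alone changed the transcript by at most 0.35 in the deposited values and at most 0.79 after centring on all rows, and under CHX the change with DEX was smaller or not called. AT1G62770, of the family of pectin methylesterase inhibitors, which restrain an enzyme that modifies cell wall pectin, read 5.02, 5.14 and 5.17 under mock conditions, 8.66, 8.31 and 8.64 with DEX, 5.53, 5.27 and 5.57 with CHX and 6.93, 6.62 and 6.75 with both. The arrays with both chemicals lay between those with CHX and those with DEX. DEX raised it 10.7-fold without CHX (adjusted p = 1.64e-07) and 2.48-fold with it (adjusted p = 0.000287), and the interaction was -2.11 ± 0.18 (SE, adjusted p = 0.000403). CHX alone was called for this gene in the deposited values (0.35, adjusted p = 0.0372), and after centring on all rows (0.79, adjusted p = 0.000358), but not after centring on the tested genes (0.23, adjusted p = 0.165) or quantile normalization (0.19, adjusted p = 0.257).

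AT1G10640 encodes a pectin enzyme of the polygalacturonase type, which cuts pectin chains. It read 5.36, 5.39 and 5.23 under mock conditions, 7.77, 7.58 and 7.93 with DEX, 4.99, 5.58 and 4.99 with CHX and 5.14, 5.20 and 5.12 with both. Its DEX arrays stood above all others, and the other 3 treatments lay close together. The change with DEX was 2.43 ± 0.15 (SE, adjusted p = 7.66e-06) without CHX and -0.03 ± 0.15 (adjusted p = 1) with it, for an interaction of -2.46 (95% interval -2.93 to -1.99, adjusted p = 0.000409).

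AT2G19970, a member of the CAP superfamily that resembles the pathogenesis-related protein PR-1, had the same outline. It read 4.29, 4.16 and 4.39 under mock conditions, 5.84, 6.54 and 6.78 with DEX, 4.14, 4.43 and 4.21 with CHX and 3.97, 4.23 and 4.35 with both. The DEX arrays stood apart, with replicate 1 the lowest of them, and those of the other treatments overlapped. Its rise with DEX was 4.31-fold (adjusted p = 0.000181), and its interaction was -2.18 ± 0.29 (SE, adjusted p = 0.00955).

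AT3G61810 and AT5G14650 also rose with DEX alone and were not called with DEX under CHX. AT3G61810 stood at 7.66 ± 0.20 (SD, n = 3) under mock conditions, 9.45 ± 0.25 with DEX, 7.81 ± 0.06 with CHX and 7.75 ± 0.35 with both (interaction -1.84, adjusted p = 0.0125). It was called higher with CHX after centring on all rows (0.59, adjusted p = 0.0114). AT5G14650 stood at 3.51 ± 0.23 under mock conditions, 5.62 ± 0.17 with DEX, 3.35 ± 0.28 with CHX and 3.72 ± 0.09 with both (interaction -1.74, adjusted p = 0.0076). In 3 of its treatments this gene lay among the dimmest 30%.

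In the third arrangement CHX alone lowered the transcript, as it did for AT1G10380, AT5G40270 and AT1G29270. AT1G10380 fell furthest. It read 8.67, 8.56 and 8.54 under mock conditions, 10.23, 9.99 and 9.94 with DEX, 4.84, 4.94 and 4.73 with CHX and 5.15, 5.27 and 5.22 with both. The treatments did not overlap, and the arrays with both lay just above those with CHX. Its rise with DEX was 2.76-fold without CHX (adjusted p = 1.42e-05) and its change under CHX was 0.38 ± 0.10 (SE, adjusted p = 0.278), for an interaction of -1.09 ± 0.14 (adjusted p = 0.00955).

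AT5G40270 read 7.74, 7.32 and 7.40 under mock conditions, 8.95, 9.08 and 8.94 with DEX, 6.74, 6.48 and 6.49 with CHX and 6.60, 6.65 and 6.49 with both. The arrays with CHX and with both overlapped below the mock arrays, and the DEX arrays stood above them. Its change with DEX was 1.50 ± 0.12 (SE, adjusted p = 5.18e-05) without CHX and 0.01 ± 0.12 (adjusted p = 1) with it, and the interaction was -1.50 ± 0.17 (adjusted p = 0.00365). AT1G29270 stood at 4.64 ± 0.23 (SD, n = 3) under mock conditions, 6.96 ± 0.31 with DEX, 3.07 ± 0.35 with CHX and 3.45 ± 0.18 with both. Its means with CHX and with both lay among the dimmest 30% of genes. Its interaction was -1.94 ± 0.28 (SE, adjusted p = 0.0211). That call was lost when any 1 of 6 arrays was left out (mock replicates 1 and 2, DEX replicate 2, CHX replicate 3, and DEX+CHX replicates 1 and 3), with adjusted p up to 0.0771.

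Measured by their median, the 14 negative genes changed by 2.11 with DEX alone and by 0.27 with DEX under CHX. The 7 positive genes changed by 0.18 and by 2.53. Their mock levels had medians of 5.41 for the negative and 5.38 for the positive genes, beside 5.88 for all genes. Annotated gene lengths had medians of 1518 bases for the negative, 2234 for the positive and 1912 for all protein-coding genes tested. With both chemicals 8 of the 14 negative genes were called lower than with DEX alone, 3 higher and 3 not called, while 5 of the 7 positive genes were called higher and 2 lower. Of all genes 23.3% were higher and 32.5% lower in that comparison. After centring on all rows AT3G22060, AT2G44210 and AT1G74790 were called higher in it as well.

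**Figure D3:**
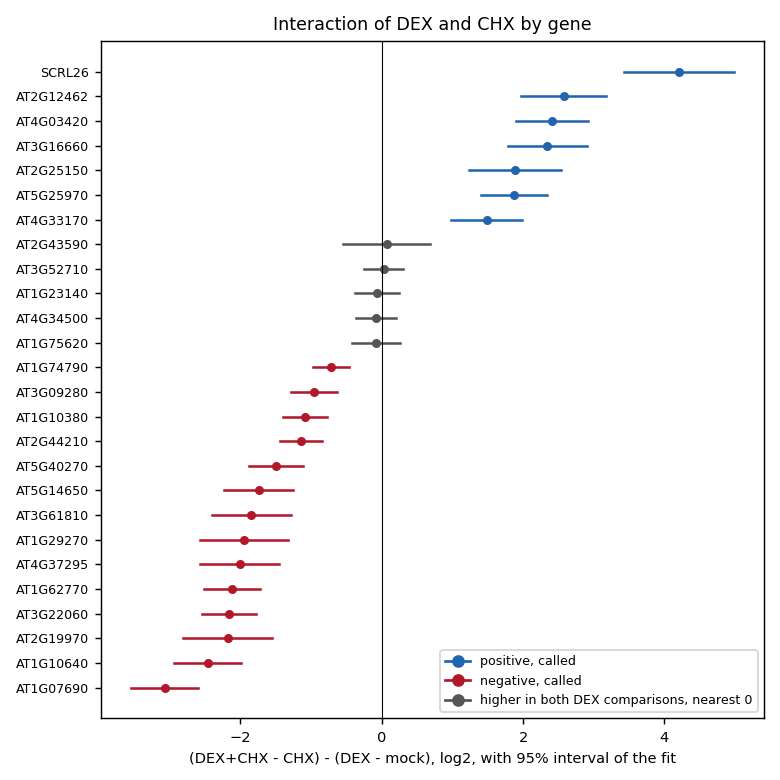
Interaction (horizontal axis, log2) with the 95% interval of the fit for the 21 genes called and for the 5 genes that rose with DEX in both settings and had the interaction nearest 0. SCRL26 lies at 4.21 and AT1G07690 at -3.07. The 5 genes in grey were picked for values near 0, so their intervals hold 0 by that choice. That of AT2G43590 (-0.55 to 0.69) is the widest.

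Many more genes rose with DEX in both settings without a called difference. DEX raised 47 genes both without and with CHX. The interaction was called for 4 of them (8.51%), beside 0.127% of all genes, though the 47 were picked by arrays that enter it. It was positive for AT2G12462 and negative for AT3G22060, AT1G62770 and AT4G37295. A missing call does not show an equal effect, so the intervals are given. For 32 of the 47 (68.1%) the 95% interval of the interaction lay within 1 on either side of 0, as it did for 86.2% of all genes, and for 6 it lay within 0.5.

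AT3G52710 had the interaction nearest 0, at 0.03 (95% interval -0.25 to 0.30). It read 7.68, 7.64 and 7.55 under mock conditions, 8.19, 8.33 and 8.42 with DEX, 9.53, 9.52 and 9.53 with CHX and 10.30, 10.15 and 10.28 with both. CHX raised it by 1.91, and DEX raised it by 0.69 without CHX (adjusted p = 0.00175) and by 0.72 from the higher level with CHX (adjusted p = 0.00224). AT4G34500 rose with DEX by 0.77 and 0.69 (interaction -0.08, interval -0.36 to 0.20), and AT1G75620 by 0.77 and 0.69 from a very low level (-0.08, interval -0.42 to 0.26). AT1G23140 rose by 0.59 and 0.53, though CHX had lowered it by 0.58 (interaction -0.07, interval -0.38 to 0.25). AT2G43590 rose by 1.41 and 1.48 (0.07, interval -0.55 to 0.69).

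A gene called in just 1 of the DEX comparisons was in most cases not shown to differ between them. Of the 137 genes called higher with DEX alone and not under CHX, the interaction was called for 11 (8.03%), and 126 had no call. The median interaction of the 137 was -0.64, and the sign was negative in all 137, but these genes were picked by the arrays that make it so. Of the 44 called higher under CHX and not without it, 5 (11.4%) had a called interaction, with a median over the 44 of 0.89. Of the 67 called lower with DEX alone and not under CHX, 1 did (1.49%), AT2G25150. Of all genes 0.127% were called. The 44 and the 67 were likewise picked by arrays that enter the interaction, so these higher shares are no further evidence. The 16248 genes called in neither DEX comparison held none of the 21.

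Just past the threshold stood 5 genes, with adjusted p from 0.0519 to 0.0638 where the last called genes had 0.0373. AT4G21930 had an interaction of 1.17, AT4G03450 of 1.79, AT5G43150 of 0.75 and SWEET8, a sugar transporter, of 1.61. AT5G22860, one of the S28 group of serine carboxypeptidases, had 1.41. Like AT2G25150 it was called lower with DEX alone (-1.65, adjusted p = 0.000239) and was not called under CHX (-0.24, adjusted p = 1). Its mock arrays read 7.27, 7.55 and 7.19, its DEX arrays 5.57, 6.07 and 5.44, its CHX arrays 7.36, 7.18 and 7.16 and its DEX+CHX arrays 6.78, 7.11 and 7.11. The DEX arrays lay below all others, and the DEX+CHX arrays lay just below the CHX arrays. Unlike AT2G25150, AT5G22860 was not lowered by CHX alone.

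Genes known to act in lateral root formation and auxin response were few among the genes tested. The annotation left 20927 of 38408 rows unnamed. Of the 16550 genes tested, 14788 carried a locus name alone and 1762 a symbol. A listed gene that was not measured here may therefore still have a row on the array. None of the measured genes listed here was called for the interaction. At 0.127% of all genes called, 0 in lists this short is no result about them. Their values are given as a description. Of 25 listed lateral root regulators 7 were measured, with a median interaction of 0.11 beside -0.03 for all genes. PUCHI, an AP2-type factor that shapes lateral root primordia, had the largest of these. It read 3.15, 3.68 and 3.38 under mock conditions, 3.87, 3.57 and 3.96 with DEX, 4.13, 4.01 and 3.80 with CHX and 5.61, 5.33 and 4.93 with both. The arrays with both chemicals stood above all others, and the DEX and mock arrays overlapped. Its interaction of 0.91 (95% interval 0.33 to 1.49) had an adjusted p of 0.384. RALFL34, a secreted signalling peptide, stood at 0.23 (adjusted p = 0.976).

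Enzymes of the GH3 family, many of which join hormones such as auxin to amino acids, were better covered, with 13 of 18 measured, 0 called for the interaction and a median of -0.01. WES1, also known as GH3.5, rose 5.58-fold with DEX and 4.25-fold with DEX under CHX, from mock arrays of 8.28, 7.97 and 8.02 to DEX arrays of 10.63, 10.63 and 10.45, and from CHX arrays of 8.57, 8.50 and 8.47 to arrays with both of 10.64, 10.62 and 10.53. The arrays with DEX overlapped whether or not CHX was present. Its interaction was -0.39 (95% interval -0.71 to -0.08, adjusted p = 0.623). GH3.1 rose with DEX by 1.11 (adjusted p = 0.00309), its change under CHX was 0.58 (adjusted p = 0.278), and CHX alone raised it 20.9-fold. The interaction of GH3.1 was -0.53 (adjusted p = 0.733) and that of GH3.3 was 0.91 (adjusted p = 0.616).

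Of 29 Aux/IAA genes, which encode repressors of the auxin response, 8 were measured and 0 called, with a median of 0.13 and values from -0.30 (IAA29) to 0.42 (IAA33). Of 80 SAUR genes 5 were measured, with interactions from -0.42 to 0.35 and 0 calls. Of 34 expansins, which loosen cell walls, 23 were measured, with a median of 0.06 and 0 calls. EXPA7 stood at -0.67 (adjusted p = 0.163), EXPA23 at 1.25 (adjusted p = 0.579) and EXP26 at 1.06 (adjusted p = 0.562). EXPA20, named after its values were seen, rose by 0.57 without CHX and 0.66 with it (interaction 0.09, 95% interval -0.26 to 0.45). Type-A response regulators of cytokinin were measured for 2 of 10 genes, RR16 at 0.54 (adjusted p = 0.917) and ARR15 at 0.24 (adjusted p = 1).

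CHX alone raised most measured members of 2 families of regulators, where 24.2% of all genes were called higher and 30.7% lower. Of 23 listed U-box ubiquitin ligases 10 were measured. Of these 10, 8 rose and 1 fell with CHX alone, with a median of 2.52 over the 10, while their median interaction was 0.08 and 0 were called. PUB24 rose 22.0-fold with CHX, and its interaction was 0.23 (95% interval -0.08 to 0.54). Of 72 listed WRKY factors just 7 were measured. With CHX alone 6 of the 7 rose, with a median of 1.67 over the 7, and the median interaction of the 7 was -0.02, with 0 called. With 0.127% of all genes called for the interaction, counts of 0 in families of this size say nothing about them. WRKY41 rose by 8.46 with CHX alone, and its interaction was -0.46 (adjusted p = 0.498).

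Among the 9 measured of 31 listed bHLH factors the interaction nearest a call was that of AT1G22490, also named bHLH94, at -1.20 (adjusted p = 0.0851). It rose 2.72-fold with DEX alone (adjusted p = 0.000463), CHX alone raised it 2.01-fold, and with both it stood at 6.61 ± 0.21 (SD, n = 3) beside 6.81 ± 0.24 with DEX. BHLH92 rose by 7.66 with CHX, with an interaction of -0.78 (adjusted p = 0.903). Of 115 defensin-like and small cysteine-rich peptides 83 were measured, with a median interaction of -0.01. SCRL26 alone was called (1 of 83, beside 0.127% of all genes), which is the call described above and no further result about the family. SCRL22, a namesake of SCRL26, stood at -0.71 (adjusted p = 0.662), PDF1.5 at 0.67 (adjusted p = 0.668) and LCR49 at -0.64 (adjusted p = 0.753). None of the genes that the reference names as pectin methylesterase inhibitors (0 of 5), pectin lyase-like enzymes (0 of 10) or secreted receptor-kinase-related proteins (0 of 1) was measured under such a name. Relatives that the reference names by locus alone were not searched for, so the called genes of those families were not set beside their relatives.

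Markers of cell types were few among the genes tested. The 2 measured of 7 root hair markers, EXPA7 and EXPA18, had a mean level of 9.19 to 9.35 over the mock arrays, 9.47 to 9.64 with DEX, 8.51 to 8.61 with CHX and 8.22 to 8.43 with both. CHX lowered both genes. In their mean the DEX arrays lay above the mock arrays while the arrays with both lay below those with CHX. No change with DEX was called for either gene, without or with CHX. Neither interaction was called, at -0.67 for EXPA7 and -0.28 for EXPA18 (adjusted p = 0.931). The 2 measured of 5 shoot markers, RCA and PORB, had a mean level of 5.94 to 6.45 with mock, 5.45 to 5.92 with DEX, 5.86 to 6.28 with CHX and 5.69 to 6.42 with both, with interactions of 0.41 (adjusted p = 0.947) and 0.63 (adjusted p = 0.925). None of 7 markers of other root cells was measured. In RNA from whole roots fewer cells of a type and less RNA per cell cannot be told apart, and the part of either in the 21 interactions was not tested.

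The chromosomal neighbours of the called genes were looked at after the values were seen, in the gene order of assembly TAIR10.1, with no test of their own. The 2 nearest protein-coding genes on each side of the 21 gave 84 places, of which 56 held a measured gene and 0 a called one. Their median absolute interaction was 0.16, beside 0.14 for all genes, and 2 of the 56 (3.57%) reached an absolute interaction of 1, as did 0.677% of all genes.

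Those 2 neighbours were SWEET8 and AT4G37290. SWEET8 lies next to AT5G40270 and had the opposite sign. It read 3.27, 3.65 and 3.27 under mock conditions, 3.64, 3.94 and 3.80 with DEX, 4.03, 4.40 and 4.24 with CHX and 6.72, 5.92 and 6.05 with both. The arrays with both stood above all others, whereas in AT5G40270 the DEX arrays did. DEX raised SWEET8 4.01-fold under CHX (adjusted p = 0.000287) and its change without CHX was 0.40 (adjusted p = 0.531), for an interaction of 1.61 (adjusted p = 0.0638) beside -1.50 in AT5G40270.

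AT4G37290 lies next to AT4G37295 and is likewise a gene of the PIP type. It read 3.26, 3.06 and 2.65 under mock conditions, 4.09, 4.49 and 4.51 with DEX, 8.87, 8.74 and 8.00 with CHX and 9.20, 8.53 and 8.31 with both. As in AT4G37295, the DEX arrays stood above the mock arrays, but the CHX arrays stood far above both and overlapped with those given both chemicals. It rose by 1.37 with DEX (adjusted p = 0.0292) and its change was 0.14 under CHX (adjusted p = 1), and its interaction was -1.23 (adjusted p = 0.449).

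AT2G19980 and PR-1-LIKE follow AT2G19970 on the chromosome. The means of both lay among the dimmest 30% of genes (up to 4.15) in every treatment. PR-1-LIKE, the reference's name for another relative of PR-1, rose with DEX by 0.73 (adjusted p = 0.00491), from a mock mean of 1.91 to 2.64. Its change with DEX under CHX was -0.10 (adjusted p = 1). Its interaction was -0.83 (adjusted p = 0.0874), and that of AT2G19980 was -0.85 (adjusted p = 0.559). Beside AT3G61810, AT3G61820 rose with DEX by 0.79 (adjusted p = 0.01) and AT3G61826 by 0.65 (adjusted p = 0.0343), with interactions of -0.45 (adjusted p = 0.733) and -0.77 (adjusted p = 0.236). None of these 4 neighbours had a called interaction.

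**Figure D4:**
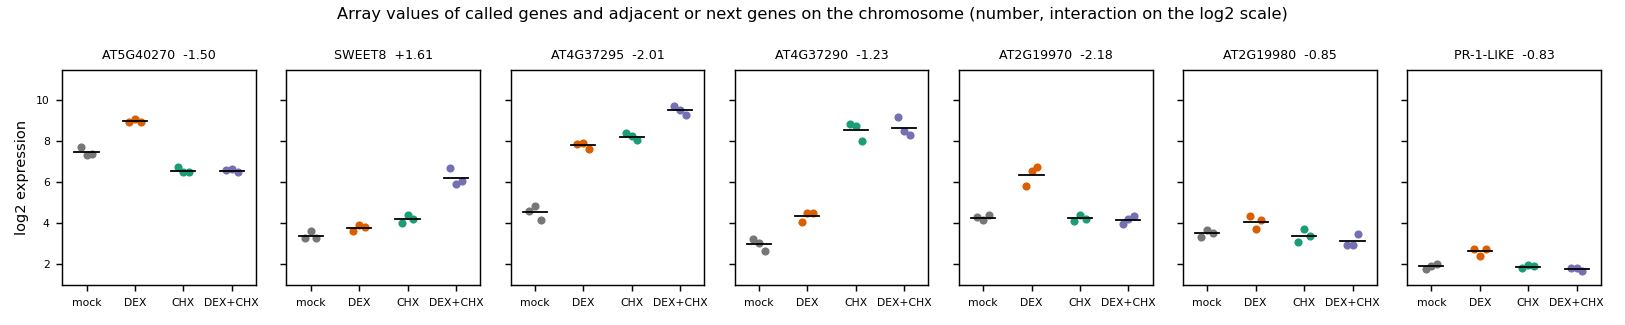
Log2 expression (vertical axis) on each of the 12 arrays for AT5G40270, AT4G37295 and AT2G19970 and for neighbours of each, by treatment. Points are arrays, bars are means of 3 arrays and the number beside each name is the interaction. SWEET8 stands highest with both chemicals (mean 6.23) and its neighbour AT5G40270 with DEX alone (mean 8.99).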

How the data were processed

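Total RNA was extracted from roots with a column kit and sense-strand DNA targets were labelled with biotin, per the labels' protocols. The submitters' processing notes name Affymetrix Expression Console 1.3 as the authors' tool. How probes were summarized and arrays normalized is not given in the sources used here. Deposited values were read as log2 expression from their range (0.89 to 13.4 in the genes tested) and were not normalized again. No detection call was used. Of 38408 rows, 16722 were paired with 1 gene by the platform annotation, 759 with several, and 20927 were unnamed there. The probe set with the highest mean stood for each of 16550 genes, which left out 172 probe sets. Names came from the RefSeq table of TAIR10.1, which matched 16411 genes. No coordinates or sequences are given, since the build behind the annotation is not stated.

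One mean per treatment was fitted to the 12 arrays with limma 3.58.1 (R 4.3.3, 8 residual degrees of freedom) and tested by contrasts with eBayes, two-sided. A gene was called where its p, adjusted by Benjamini-Hochberg over 16550 genes, was below 0.05, whatever its fold. Folds are antilogs of log2 differences, and ± is the SD of 3 arrays or the standard error (SE) of the fit, as marked. The test was tried on simulated data first. The DEX comparisons share their arrays with the interaction.

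The members and lists were chosen with earlier results of these data known. Named are all called genes, the 5 with the smallest adjusted p past the threshold, the 5 genes higher in both DEX comparisons with the interaction nearest 0, up to 4 members of each list with the smallest p, and LBD16. EXPA20 and the neighbours were added after their values were seen. Families listed by synonym hold the genes that the reference names so. The search for HXXXD acyltransferases found none.

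Deviations of same-numbered arrays from their group means correlated at 0.00615 to 0.332 over the pairs of treatments. All 3 numbers passed 0.1 for CHX and DEX+CHX alone (0.244, 0.157 and 0.332), so the numbers were not taken to pair the 4 treatments. Results were recomputed with quantile normalization, with replicate numbers as a block, with 2 ways of centring, a filter on the dimmest 30% of genes, all rows tested, the mean of probe sets, a robust variance with a trend, a threshold of 0.01, a fold minimum of 2, each array left out, each replicate of every treatment left out, and the antilog scale.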

Additional observations from a re-analysis of the deposited data

Results flagged for a closer look

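In 21 genes the change with DEX differed between roots with and without CHX by the interaction test. On the log2 scale the difference was 4.21 for SCRL26, 2.57 for AT2G12462, 2.41 for AT4G03420, 2.34 for AT3G16660, 1.88 for AT2G25150, 1.87 for AT5G25970 and 1.49 for AT4G33170. It was -3.07 for AT1G07690, -2.46 for AT1G10640, -2.18 for AT2G19970, -2.16 for AT3G22060, -2.11 for AT1G62770, -2.01 for AT4G37295 and -1.94 for AT1G29270. It was -1.84 for AT3G61810, -1.74 for AT5G14650, -1.50 for AT5G40270, -1.14 for AT2G44210, -1.09 for AT1G10380, -0.95 for AT3G09280 and -0.72 for AT1G74790.

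A signal also appeared in rows of the table that were not used as genes. With all 38408 rows tested, 16 such rows had a called interaction, 15 of them unnamed and 1 paired with several genes. Of the unnamed rows 9 were negative and 6 positive, and the row of several genes was positive, at 2.54 (limma adjusted p = 0.0072). The largest was an unnamed row at -4.16 (adjusted p = 0.012), which rose by 4.47 with DEX alone and by 0.31 with DEX under CHX. That is a larger negative interaction than that of any gene tested. No gene name is given to any of the 16 rows here.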

How the results depend on the processing

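Of the 21 interaction calls, 16 held with any single array left out and 20 of 21 were lost in at least 1 refit, AT1G07690 being the exception. The total was 17 to 23 with single arrays left out (5 to 9 positive, 12 to 16 negative). Without replicate 1, 2 or 3 of every treatment it was 4, 6 and 2, with 1 positive each time and 3, 5 and 1 negative, where 2 arrays per treatment remain. With all rows tested it was 32 (12 positive), and with a trended, robust variance 53 (22 positive, 31 negative). The positive genes came to 11 after centring on all rows and 13 without the dimmest 30%. With the replicate block the interaction was called for 22 genes, 9 positive and 13 negative, 18 of them among the 21, and AT2G25150 (adjusted p = 0.0599), AT1G29270 (0.0591) and AT1G74790 (0.0547) were lost. The same numbers gave 315 calls for DEX and 105 for DEX under CHX. On the antilog scale AT2G12462 turned to -1724 and AT4G37295 to 230.1.

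For DEX against mock, 252 genes became 120 at a threshold of 0.01, 85 with a fold minimum of 2, 150 to 229 with single arrays left out, the lowest without mock replicate 3, and 116, 61 and 62 without replicate 1, 2 and 3 of every treatment. For DEX under CHX, 98 became 55, 51, and 62 to 98 (62 and 64 with DEX+CHX replicate 1 or 2 left out, 64 with CHX replicate 3 left out), and 36, 29 and 27. CHX against mock gave 23040 calls with all rows and 3833 with a fold minimum of 2, and DEX+CHX against DEX gave 23549 and 3872. The causes were not tested. The 24 other changes of call among named genes and neighbours were gains, the only kind of change open to genes without a call in the main fit.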
